A study of Rattus norvegicus with 24 samples.

Results

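The CXC chemokines that attract neutrophils and their receptors were described in lungs of rats with or without massive brain damage under 2 ventilation settings. The genes were chosen by symbol, and 7 symbols were sought among the 19239 features of the arrays. The family and the gene lists below were chosen with earlier results of these data known. Their counts beside the shares of all features are therefore descriptive. The 7 symbols gave 6 features: 4 ligands (Cxcl1, Cxcl2, Cxcl3 and Cxcl6) and 2 receptors (Cxcr1 and Cxcr2). Cxcl5 is an older name of the rat gene now called Cxcl6, so both names share 1 feature. The receptors stood in the array annotation under the older symbols Il8ra and Il8rb and were matched by gene identifier.

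These ligands are small secreted proteins whose receptors are G protein-coupled receptors on neutrophils, chiefly CXCR2. Macrophages, epithelium and endothelium make them after signals such as interleukin-1 and tumor necrosis factor, largely through the transcription factor NF-kappaB, and their messages are short-lived. In the lung they draw neutrophils from the capillaries towards the airspaces, and they are among the mediators studied in ventilator-induced lung injury.

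Total RNA of the right lung of 24 adult male Wistar rats was hybridised to Affymetrix arrays, 1 per rat and 6 rats per group. All rats were anesthetized with ketamine and xylazine and assigned to 6 h of ventilation, and none of the groups was left unventilated. Rats with brain damage (BD), made by inflating an epidural balloon, or without it (NBD, no skull opening) received a tidal volume of 6 mL/kg with an individually set open lung PEEP (LVT/OLPEEP) or 12 mL/kg with low PEEP (HVT/LPEEP). Sample titles write braindead for BD, HT for HVT/LPEEP and best PEEP for LVT/OLPEEP. The breathing rate was lower under HVT/LPEEP, and only LVT/OLPEEP rats received a lung recruitment maneuver and a stepwise PEEP trial. Tidal volume, PEEP, breathing rate and recruitment were thus changed together, so their effects cannot be told apart. The methods count 2 non-survivors among the BD HVT/LPEEP arrays, which cannot be identified from the labels. How long these rats were ventilated is not given. The values were log2 values normalized to 1 common distribution, from 5.73 to 14.53 with a median of 9.18. The labelled tissue carried its markers: surfactant protein C (Sftpc) was at 14.24 to 14.41 and the airway secretory protein Scgb1a1 at 13.67 to 14.16 in all rats. In BD LVT/OLPEEP rat 16 the mean of 10 skeletal muscle genes was 3.61 above the mean of all rats, against a highest value of 0.17 in any other rat. Without this rat, Cxcl1 and Cxcl6 still differed between the BD groups (limma, adjusted p = 0.0338 and 0.014). In whole tissue, fewer cells of a type and less RNA per cell cannot be told apart.

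In the RefSeq annotation (GRCr8) the 4 ligand genes lie in 1 stretch of chromosome 14, in the order Cxcl2, Cxcl1, Cxcl3, Cxcl6. The platelet chemokine genes Pf4 and Ppbp lie between Cxcl3 and Cxcl6. Cxcr2 and Cxcr1 are neighbours on chromosome 9. The promoters of the 3 ligands with the largest differences are shown because their windows hold a match to the kappaB-like motif, GGG and TTTCC with any 2 bases between them, searched on both strands and printed in capitals. They are RefSeq windows of 300 bases, given 5′ to 3′ on the minus strand, at chr14:17479272-17479571 for Cxcl1, chr14:17467206-17467505 for Cxcl2 and chr14:17596368-17596667 for Cxcl6.
Cxcl1: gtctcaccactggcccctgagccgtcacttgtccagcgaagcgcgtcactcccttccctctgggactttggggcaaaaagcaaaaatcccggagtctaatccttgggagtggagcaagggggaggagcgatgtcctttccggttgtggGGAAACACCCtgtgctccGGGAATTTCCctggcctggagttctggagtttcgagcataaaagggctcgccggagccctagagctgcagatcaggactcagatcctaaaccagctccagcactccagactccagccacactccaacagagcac
Cxcl2: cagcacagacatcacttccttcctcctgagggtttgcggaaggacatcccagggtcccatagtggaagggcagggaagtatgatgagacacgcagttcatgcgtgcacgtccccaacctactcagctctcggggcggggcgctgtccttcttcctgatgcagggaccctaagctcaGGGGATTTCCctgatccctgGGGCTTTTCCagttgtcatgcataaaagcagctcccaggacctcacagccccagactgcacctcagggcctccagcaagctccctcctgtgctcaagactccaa
Cxcl6: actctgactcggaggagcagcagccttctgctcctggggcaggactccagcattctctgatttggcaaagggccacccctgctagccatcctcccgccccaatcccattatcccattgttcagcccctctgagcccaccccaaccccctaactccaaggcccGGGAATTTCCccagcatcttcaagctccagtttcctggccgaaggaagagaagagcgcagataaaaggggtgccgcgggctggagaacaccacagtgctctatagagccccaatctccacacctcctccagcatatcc
The Cxcl1 window had 2 matches, GGAAACACCC starting 102 bases before the start site (the motif read on the other strand) and GGGAATTTCC starting 84 bases before it. The Cxcl2 window had 2 as well, GGGGATTTCC at 74 bases and GGGCTTTTCC at 54 bases before the start. The Cxcl6 window had 1, GGGAATTTCC at 88 bases, the same letters as in Cxcl1. This motif occurred in 512 of 33469 promoter windows of the rat genome, or 1.53%, and in neither receptor window. All 3 ligand windows also held the TATA-like letters ATAAAA, starting 47 (Cxcl1), 33 (Cxcl2) and 28 (Cxcl6) bases before the start, as did 20.5% of all windows. The AP-1-like motif TGANTCA was in none of the 5 windows searched and in 7.33% of all windows. The motifs were picked after the promoters had been read, no window was searched for Cxcl3, and a match describes letters only.

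Brain-damaged lungs ventilated with HVT/LPEEP had the highest mean log2 value of each of the 4 ligands. Against BD LVT/OLPEEP, which asks what the ventilation setting changed after brain damage, 2 of the 6 genes were higher, Cxcl1 and Cxcl6, and 0 were lower (limma, adjusted p under 0.05), where 2.85% of all 19239 features were called higher and 2.82% lower. Against NBD HVT/LPEEP, which asks what brain damage changed under the same setting, 3 were higher (Cxcl1, Cxcl3 and Cxcl6) and 1 was lower (Cxcr1), where 5.90% of all features were called higher and 8.50% lower. Both comparisons use the same 6 BD HVT/LPEEP rats, so they are not independent of each other. The median log2 difference of the 6 genes was 0.44 in the first and 0.49 in the second comparison, beside -0.01 and -0.01 over all features.

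Of the other comparisons, only the one of the groups that differ in both factors gave calls in these genes. Between the ventilation settings in NBD, 0 of the 6 genes and 0% of all features were called, although 16.3% of all features, and 0 of the 6, had an unadjusted p under 0.05. Between BD and NBD under LVT/OLPEEP, 0 of the 6 were called, with 0.208% of all features higher and 0.530% lower. By unadjusted p under 0.05 it was 1 of the 6 (Cxcr1), beside 11.6% of all features. BD LVT/OLPEEP against NBD HVT/LPEEP also gave 0 of the 6, with 0.244% of features higher and 0.946% lower, and by unadjusted p 1 (Cxcr1), beside 14.6% of features. BD HVT/LPEEP against NBD LVT/OLPEEP, which differ in both factors, gave 3 higher (Cxcl1, Cxcl2 and Cxcl6) and 1 lower (Cxcr1), with 9.03% of features higher and 10.0% lower. The ventilation difference in BD minus that in NBD was above 0 for all 6 genes, with a median of 0.58 against -0.02 over all features. However, 0 of the 6 passed the test of that difference itself, and 0.0104% of all features did. Unadjusted p was under 0.05 for 3 of the 6 (Cxcl1, Cxcl3 and Cxcl6), beside 13.7% of all features. Holm's correction, which the study's methods name for a mixed-model analysis of variance, was applied here to the limma p-values. With it, 0 of the 6 genes passed in any comparison. The study's own model was not refitted. The p-values measure the spread between rats, and 6 rats per group limit the precision of each value.

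**Figure D1:**
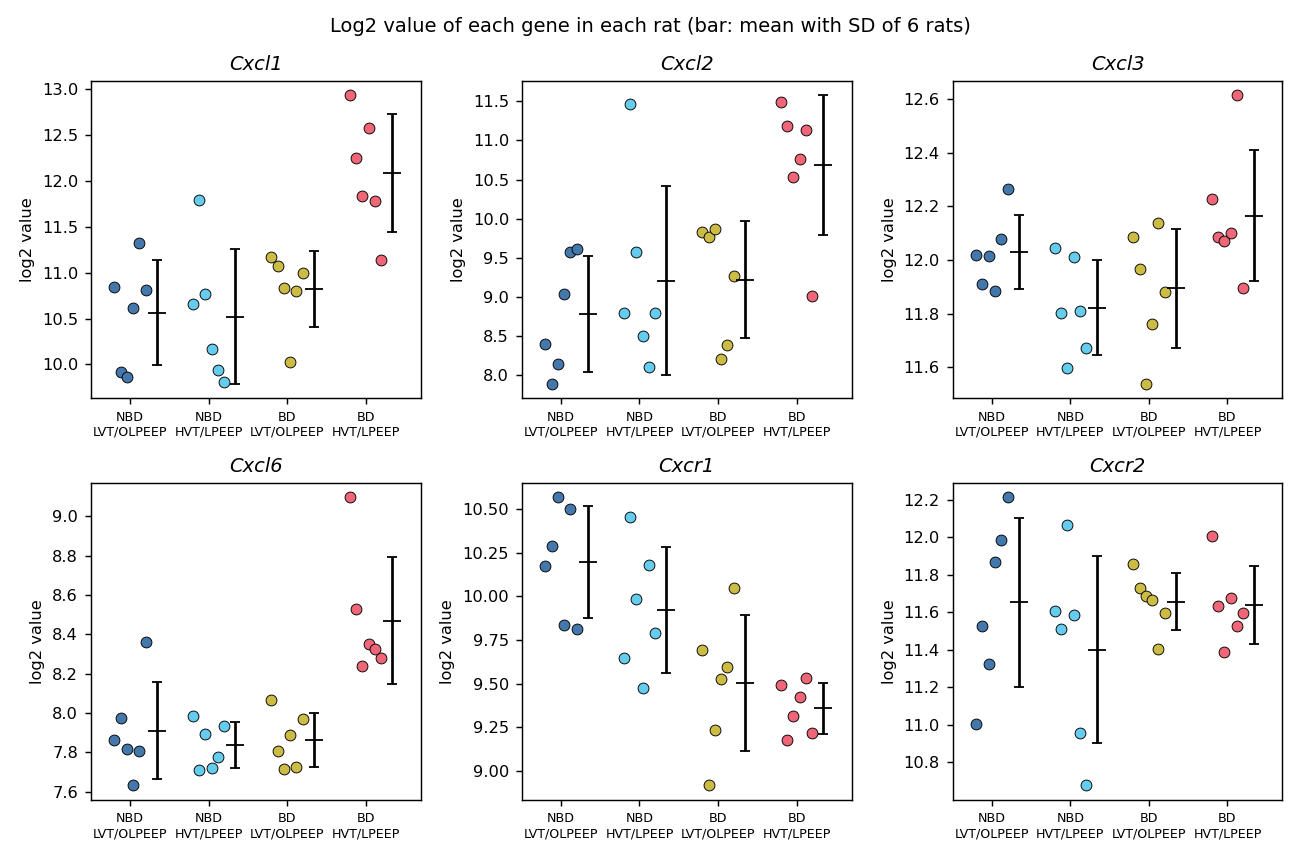
Log2 value (vertical axis) of the 4 ligands and 2 receptors in each rat, by group, with the mean and SD of 6 rats beside the points. In Cxcl6 the 6 BD HVT/LPEEP rats lie between 8.24 and 9.10, above all BD LVT/OLPEEP and NBD HVT/LPEEP rats, whereas the groups of Cxcr2 overlap.

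Cxcl1, known in rats as a cytokine-induced neutrophil chemoattractant and the rat counterpart of the mouse chemokine KC, was highest in BD HVT/LPEEP. Its lowest, median and highest log2 values were 11.13, 12.04 and 12.93 for BD HVT/LPEEP and 10.03, 10.92 and 11.18 for BD LVT/OLPEEP. The corresponding values were 9.80, 10.41 and 11.79 for NBD HVT/LPEEP and 9.86, 10.71 and 11.33 for NBD LVT/OLPEEP. The BD HVT/LPEEP values of 5 rats exceeded all those of BD LVT/OLPEEP, and rat 37 at 11.13 lay within the range of that group. A single NBD HVT/LPEEP rat, rat 12 at 11.79, reached the BD HVT/LPEEP range above its lowest rats, and the next NBD HVT/LPEEP rat was at 10.77.

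The log2 difference in Cxcl1 between the ventilation settings in BD was 1.27 ± 0.33 (SE), a 2.41-fold higher value with a 95% confidence interval of 1.50 to 3.86 (limma, adjusted p = 0.0254). Between BD and NBD under HVT/LPEEP it was 1.56 ± 0.33 (adjusted p = 0.00275), and against NBD LVT/OLPEEP 1.52 ± 0.33 (adjusted p = 0.00243). In NBD the settings differed by -0.04, with an interval of -0.72 to 0.64 (adjusted p = 0.964). The interval of the log2 difference in BD, 0.58 to 1.95, overlapped it. The group means ran 12.08 ± 0.64 (BD HVT/LPEEP, SD, n = 6), 10.82 ± 0.41 (BD LVT/OLPEEP), 10.56 ± 0.57 (NBD LVT/OLPEEP) and 10.52 ± 0.73 (NBD HVT/LPEEP). Of the neighbours in this order only the first pair passed at an adjusted p under 0.05. The ventilation difference in BD minus that in NBD was 1.31 ± 0.47, which failed the test over all features (adjusted p = 0.229) but passed with animal number as a covariate (1.82, adjusted p = 0.019). Animal numbers ran from 7 to 20 in BD LVT/OLPEEP and from 11 to 37 in BD HVT/LPEEP. In BD this covariate, here and below, is therefore partly confounded with the ventilation setting. The call between the BD groups rested on single rats: without BD HVT/LPEEP rat 11, 22 or 26 or BD LVT/OLPEEP rat 18 or 20 the adjusted p was 0.0506 to 0.0704. The calls against both NBD groups were kept when any 1 rat was left out.

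Cxcl2, the rat macrophage inflammatory protein that binds CXCR2, followed Cxcl1 across rats but with a wider spread. Its values ran from 9.01 (lowest) through 10.95 (median) to 11.50 (highest) for BD HVT/LPEEP and from 8.20 through 9.52 to 9.87 for BD LVT/OLPEEP. They were 8.11, 8.80 and 11.47 for NBD HVT/LPEEP and 7.89, 8.72 and 9.61 for NBD LVT/OLPEEP. Rat 37, at 9.01, was again the only BD HVT/LPEEP rat within the range of BD LVT/OLPEEP. Rat 12 of NBD HVT/LPEEP, at 11.47, was above all BD HVT/LPEEP rats but rat 11, and no other NBD rat was above 9.61.

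The log2 difference in Cxcl2 was 1.46 ± 0.50 (SE) between the BD groups and 1.48 ± 0.50 between BD and NBD under HVT/LPEEP, and neither passed (limma, adjusted p = 0.0864 and 0.0506). Against NBD LVT/OLPEEP it was 1.91 ± 0.50, 3.75-fold with an interval of 1.83 to 7.71, and passed (adjusted p = 0.00982). This call was kept without any single rat and was lost when 3 of the 15 possible pairs from BD HVT/LPEEP were left out (highest adjusted p 0.0693). Group means fell from 10.69 ± 0.89 (SD, n = 6) in BD HVT/LPEEP to 9.22 ± 0.75 for BD LVT/OLPEEP, 9.21 ± 1.21 for NBD HVT/LPEEP and 8.78 ± 0.74 for NBD LVT/OLPEEP. No neighbours in this order passed at an adjusted p under 0.05. Without rat 12 the comparison of BD with NBD under HVT/LPEEP gave 1.93 and passed (adjusted p = 0.0039), and it also passed without BD HVT/LPEEP rat 37 (0.0138) or BD LVT/OLPEEP rat 20 (0.0493). The comparison of the BD groups passed without rat 12 (0.0294) or rat 37 (0.0265). Under HVT/LPEEP the Cxcl2 difference between BD and NBD also passed after the shift to Eif2b1 (0.0263), without the 40% dimmest features (0.0314), with array weights (0.00292) and with animal number as a covariate (0.00782), and between the BD groups it passed with array weights (0.0489) and with animal number (0.0068). The ventilation difference in BD exceeded that in NBD by 1.04 ± 0.71 (adjusted p = 0.538).

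Cxcl6, a CXCR2 ligand that in rodents is made largely by epithelium and stromal cells, was higher in BD HVT/LPEEP with no overlap with BD LVT/OLPEEP or NBD HVT/LPEEP. It ran from 8.24 through a median of 8.34 to 9.10 with brain damage and HVT/LPEEP, and from 7.72 through 7.85 to 8.06 with brain damage and LVT/OLPEEP. The lowest, median and highest values were 7.71, 7.83 and 7.98 for NBD HVT/LPEEP and 7.63, 7.84 and 8.36 for NBD LVT/OLPEEP. Every BD HVT/LPEEP rat was above every BD LVT/OLPEEP and every NBD HVT/LPEEP rat. Of all features, 1.41% separated the BD groups in this way and 1.85% the groups under HVT/LPEEP. NBD LVT/OLPEEP rat 6, at 8.36, lay within the BD HVT/LPEEP range, and the other NBD LVT/OLPEEP rats were at 7.97 or below.

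The log2 difference in Cxcl6 was 0.61 ± 0.12 (SE) between the BD groups (1.52-fold, interval 1.27 to 1.82, limma, adjusted p = 0.00715). It was 0.63 ± 0.12 between BD and NBD under HVT/LPEEP (adjusted p = 0.00151) and 0.56 ± 0.12 against NBD LVT/OLPEEP (adjusted p = 0.00292). In the exact two-sided permutation test the first and second of these gave p = 0.00216, the smallest that 924 splits of 6 against 6 rats allow. The mean was 8.47 ± 0.32 (SD, n = 6) in BD HVT/LPEEP, followed by 7.91 ± 0.25 in NBD LVT/OLPEEP, 7.86 ± 0.14 in BD LVT/OLPEEP and 7.84 ± 0.12 in NBD HVT/LPEEP. Only the first step in this order passed at an adjusted p under 0.05. All 3 calls were kept when any 1 rat, or any pair of BD HVT/LPEEP rats, was left out. Without rat 11, which was highest at 9.10, the difference between the BD groups was 0.48 (adjusted p = 0.012). With each array shifted to the same level of the reference gene Eif2b1, the calls against BD LVT/OLPEEP and NBD LVT/OLPEEP did not pass (adjusted p = 0.113 and 0.0584). The feature was dim, its mean being at the 23.1 percentile of all features. The ventilation difference in BD exceeded that in NBD by 0.68 ± 0.18, with adjusted p = 0.12, or 0.0287 with animal number as a covariate.

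Cxcl3, another CXCR2 ligand of the same gene stretch, had a narrow range. Its lowest, median and highest values were 11.90, 12.09 and 12.61 for BD HVT/LPEEP and 11.54, 11.92 and 12.14 for BD LVT/OLPEEP. They were 11.60, 11.80 and 12.05 for NBD HVT/LPEEP and 11.89, 12.02 and 12.27 for NBD LVT/OLPEEP. All groups overlapped, and BD HVT/LPEEP rat 28 had the highest value. The difference between BD and NBD under HVT/LPEEP was 0.34 ± 0.11 (SE, 1.27-fold, limma, adjusted p = 0.0411), and 5 of 6 BD HVT/LPEEP rats were above every NBD HVT/LPEEP rat. This call was lost on leaving out any 1 of 8 rats, BD HVT/LPEEP rats 11, 22, 26 and 28 and NBD HVT/LPEEP rats 12, 13, 33 and 34 (adjusted p = 0.0521 to 0.109). It was also lost with only the 2 groups' arrays in the fit (0.0817) and without moderation of the variances (0.0534). Between the BD groups Cxcl3 differed by 0.27 ± 0.11 (adjusted p = 0.157) and between the NBD groups by -0.21 ± 0.11 (adjusted p = 0.348), which left a difference of 0.48 ± 0.16 between them (adjusted p = 0.201). The means ran 12.17 ± 0.24 (SD, n = 6) in BD HVT/LPEEP, 12.03 ± 0.14 for NBD LVT/OLPEEP, 11.90 ± 0.22 for BD LVT/OLPEEP and 11.82 ± 0.18 for NBD HVT/LPEEP. No neighbours in this order passed at an adjusted p under 0.05.

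**Figure D2:**
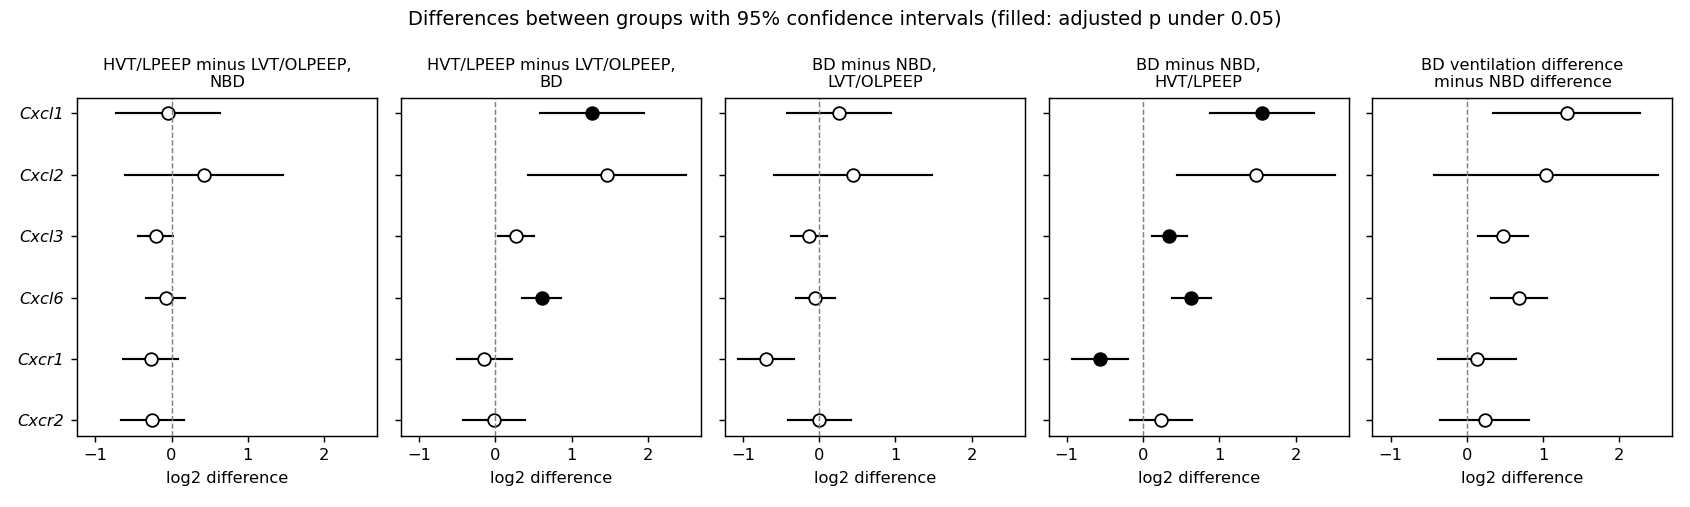
Log2 difference (horizontal axis) of each gene in 5 comparisons, with 95% confidence intervals from limma and filled points where the adjusted p was under 0.05. Cxcl1 at 1.27 and Cxcl6 at 0.61 were called between the ventilation settings in BD, and no gene was called in NBD, under LVT/OLPEEP or for the difference of the ventilation differences.

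Neither receptor was called higher in BD HVT/LPEEP against any other group. Cxcr1 is a receptor of neutrophils that in humans binds interleukin-8. Its mean was lower with brain damage under both settings, and the difference passed only under HVT/LPEEP. Its lowest, median and highest values were 9.18, 9.37 and 9.53 for BD HVT/LPEEP and 8.92, 9.56 and 10.05 for BD LVT/OLPEEP. They were 9.48, 9.89 and 10.45 for NBD HVT/LPEEP and 9.81, 10.23 and 10.57 for NBD LVT/OLPEEP. Every BD HVT/LPEEP rat was below every NBD LVT/OLPEEP rat, which held for 5.93% of all features, and 4 of the 6 were below every NBD HVT/LPEEP rat. Under LVT/OLPEEP, 5 of 6 BD rats were below every NBD rat, and rat 9 at 10.05 was not.

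Between BD and NBD under HVT/LPEEP, Cxcr1 differed by -0.56 ± 0.18 (SE, 0.677 times the NBD value, limma, adjusted p = 0.0339). Under LVT/OLPEEP the difference was larger in size, -0.69 ± 0.18, but did not pass (adjusted p = 0.0692). The unadjusted limma p was 0.000668 under LVT/OLPEEP and 0.00404 under HVT/LPEEP. The ventilation difference in BD minus that in NBD was 0.13 ± 0.25 (adjusted p = 0.849). Against NBD LVT/OLPEEP BD HVT/LPEEP differed by -0.84 ± 0.18 (adjusted p = 0.00196). The call between BD and NBD under HVT/LPEEP was lost without any 1 of NBD HVT/LPEEP rats 12, 13 and 33 and BD HVT/LPEEP rats 22, 24, 26 and 37 (adjusted p = 0.0518 to 0.0744). The difference under LVT/OLPEEP passed without NBD HVT/LPEEP rat 12 (0.0349) or BD LVT/OLPEEP rat 9 (0.0357). Shifting arrays to the same level of Eif2b1 also ended the call under HVT/LPEEP (-0.43, adjusted p = 0.151), and weighting the arrays did so as well (-0.43, 0.0858). Between the ventilation settings Cxcr1 differed by -0.14 ± 0.18 in BD (adjusted p = 0.696) and by -0.27 ± 0.18 in NBD (adjusted p = 0.431). The means ran 10.20 ± 0.32 (SD, n = 6) in NBD LVT/OLPEEP, 9.92 ± 0.36 in NBD HVT/LPEEP, 9.50 ± 0.39 in BD LVT/OLPEEP and 9.36 ± 0.15 in BD HVT/LPEEP. No neighbours in this order passed at an adjusted p under 0.05, although BD LVT/OLPEEP differed from NBD HVT/LPEEP by -0.42 with an interval of -0.78 to -0.06.

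Cxcr2, the receptor shared by the ligands, passed no test. Its lowest, median and highest values were 11.39, 11.61 and 12.01 for BD HVT/LPEEP and 11.41, 11.68 and 11.86 for BD LVT/OLPEEP. They were 10.68, 11.55 and 12.07 for NBD HVT/LPEEP and 11.01, 11.70 and 12.21 for NBD LVT/OLPEEP. The NBD rats spread more widely than the BD rats, with an SD of 0.50 and 0.45 against 0.21 and 0.15, and the lowest values were those of NBD HVT/LPEEP rats 34 and 33. Means were 11.66 (BD LVT/OLPEEP), 11.65 (NBD LVT/OLPEEP), 11.64 (BD HVT/LPEEP) and 11.40 (NBD HVT/LPEEP), and no neighbours in this order passed at an adjusted p under 0.05. The log2 difference between the BD groups was -0.02 with an interval of -0.43 to 0.39 (limma, adjusted p = 0.97). Between BD and NBD under HVT/LPEEP it was 0.24, from -0.17 to 0.65 (adjusted p = 0.484).

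Across the 24 rats, Cxcl2 was the ligand most like Cxcl1 (Pearson r = 0.90, and 0.85 after each group's mean was subtracted). For Cxcl6 r with Cxcl1 was 0.70, falling to 0.27 within groups, and for Cxcl3 it was 0.47 and 0.21. Rat 12 of NBD HVT/LPEEP shows the difference between these ligands: it was the highest of its group in Cxcl1 and Cxcl2 and the lowest in Cxcl6, at 7.71. Rat 37 of BD HVT/LPEEP had the lowest Cxcl1 and Cxcl2 of its group but a Cxcl6 value of 8.28, still above all BD LVT/OLPEEP rats. Cxcr2 had r = 0.39 with Cxcl1 and -0.17 with Cxcr1. These values describe rats that share groups and the same normalization.

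**Figure D3:**
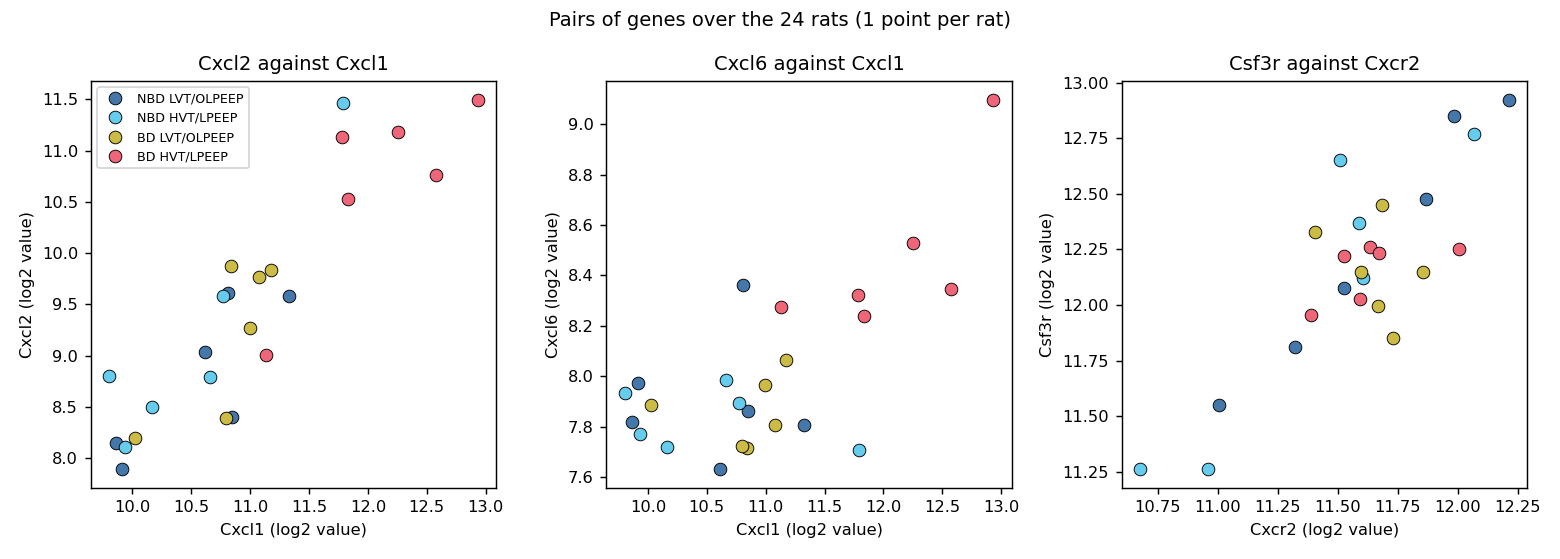
Log2 values of Cxcl2 against Cxcl1, Cxcl6 against Cxcl1 and Csf3r against Cxcr2, with 1 point per rat coloured by group. Cxcl2 rises with Cxcl1 in all groups together (r = 0.90), and the NBD HVT/LPEEP rat at a Cxcl1 of 11.79 has a Cxcl2 of 11.47 and a Cxcl6 of 7.71.

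Outside the family, the 5 named genes most like Cxcl1 over the 24 rats were Rgs16 (r = 0.92), which ends G protein signals, Tfpi2 (0.92), a protease inhibitor, Gch1 (0.92), the first enzyme of tetrahydrobiopterin synthesis, the cytokine Il6 (0.91) and Nfkbiz (0.91), an inducible nuclear regulator of NF-kappaB target genes. After subtraction of the group means their r lay between 0.80 for Gch1 and 0.87 for Rgs16. The promoter windows of Il6 and Nfkbiz held 1 match each to the kappaB-like motif, and those of Rgs16, Tfpi2 and Gch1 held 0. The genes most like Cxcr2 were Csf3r (r = 0.85), the receptor for the granulocyte growth factor, Pstpip2 (0.84), which binds the actin cytoskeleton, Aoah (0.79), an enzyme that inactivates endotoxin, Srgn (0.78), a proteoglycan of secretory granules, and Tarm1 (0.78), a receptor of myeloid cells. None of their windows held the kappaB-like motif.

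**Figure D4:**
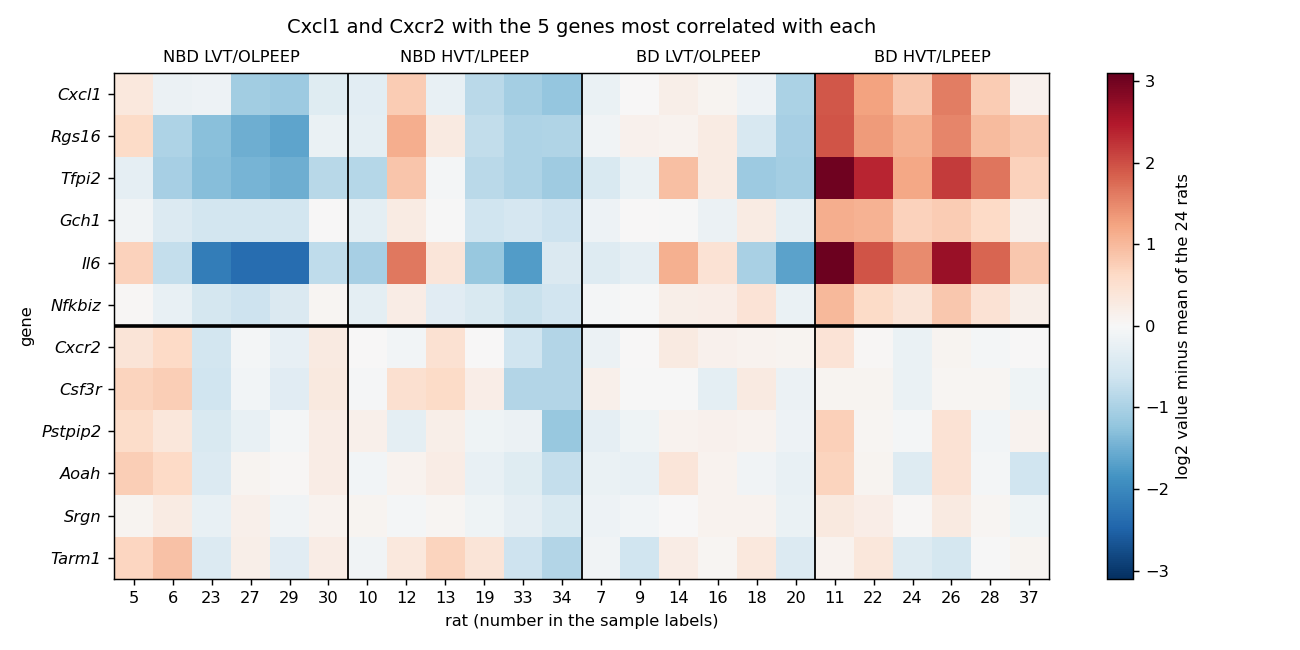
Log2 value minus the mean of the 24 rats (colour) for Cxcl1 and Cxcr2, each with the 5 genes most correlated with it, in rats (columns) ordered by group. The upper rows are high in BD HVT/LPEEP and in NBD HVT/LPEEP rat 12, and the lower rows are low in NBD HVT/LPEEP rats 33 and 34.

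Of 15 measured genes of cytokines that induce these ligands, their receptors and an antagonist, 6 were higher with brain damage under HVT/LPEEP, 0 were lower and 9 did not pass, with 5.90% of all features higher. The 6 were the cytokines Il1a, Il1b, Il6 and Tnf, the interleukin-1 receptor antagonist Il1rn and the oncostatin M receptor Osmr. The list had a median log2 difference of 0.42 against -0.01 over all features. Il1a, an alarm cytokine released by damaged cells, rose by 1.68 ± 0.26 (SE, limma, adjusted p = 0.000194), Il1b by 1.38 ± 0.32 (0.00621) and Tnf by 1.30 ± 0.32 (0.00965). Between the BD groups 2 of the 15 were higher, Il1a by 1.38 ± 0.26 (0.00479) and Il6 by 2.26 ± 0.59 (0.0257), beside 2.85% of all features. The list median there was 0.35. Il1b was at 11.68 to 13.12 in BD LVT/OLPEEP and 12.62 to 13.22 in BD HVT/LPEEP, so the BD groups overlapped.

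Part of the list of NF-kappaB genes and regulators of message stability was higher too. Of 17 genes measured, 6 were higher and 0 lower with brain damage under HVT/LPEEP, beside 5.90% of all features higher and 8.50% lower. The list median was 0.26 against -0.01 over all features. Nfkb1, a subunit of NF-kappaB, was higher by 0.69 ± 0.09 (SE, limma, adjusted p = 2.85e-05), the subunit Rel by 0.82 ± 0.11 (5.88e-05) and Nfkbiz by 0.94 ± 0.16 (0.000466). Nfkbia, the inhibitor that NF-kappaB itself induces, Tlr2 and Traf6 made up the rest. Between the BD groups only Nfkb1 passed, at 0.45 ± 0.09 (adjusted p = 0.00589), where 2.85% of all features were higher and 2.82% lower. Rel and Traf6 were also called higher in BD LVT/OLPEEP against NBD HVT/LPEEP, which differ in both factors, as were 0.244% of all features.

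Downstream of the receptors, 1 of 19 signalling genes was higher and 3 were lower with brain damage under HVT/LPEEP, beside 5.90% of all features higher and 8.50% lower. The list median was 0.08 against -0.01 over all features. Arrb1, a beta-arrestin that uncouples and internalises chemokine receptors, was lower by -0.57 ± 0.08 (SE, limma, adjusted p = 0.000117), as were the phospholipases Plcb3 (-0.39 ± 0.11, 0.0191) and Plcb2 (-0.42 ± 0.12, 0.0216), whereas Hcls1, an actin regulator of blood cells, was higher (0.45 ± 0.13, 0.0254). Arrb1 was also lower between the BD groups, by -0.66 ± 0.08 (0.000341), the only signalling gene called there, where 2.82% of all features were lower. Its 6 values in BD HVT/LPEEP, 11.23 to 11.64, were all below those of the other 3 groups, which began at 11.86. Of all features, 1.76% separated in this way from BD LVT/OLPEEP, 3.64% from NBD HVT/LPEEP and 5.93% from NBD LVT/OLPEEP.

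Molecules by which neutrophils roll, stick and pass the vessel wall went in both directions. With brain damage under HVT/LPEEP, 5 of 17 were higher (Cd44, Sdc4, Sele, Selp and Vcam1) and 2 lower (F11r and Icam2), beside 5.90% and 8.50% of all features. The list median was 0.01 against -0.01 over all features. Selp and Sele, the selectins of activated endothelium, were higher by 1.66 ± 0.48 (SE, limma, adjusted p = 0.0237) and 1.56 ± 0.37 (0.00633), and Vcam1, an endothelial adhesion molecule, by 1.19 ± 0.25 (0.003). Icam2, which resting endothelium carries, was lower by -0.70 ± 0.12 (0.00057), and the junction protein F11r by -0.36 ± 0.08 (0.00275). Between the BD groups Sdc4, a syndecan of the cell surface, was higher by 0.77 ± 0.16 (0.00823), and Icam2 and F11r were lower by -0.47 ± 0.12 (0.0252) and -0.31 ± 0.08 (0.0172). In that comparison 2.85% of all features were higher and 2.82% lower.

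Few other attractants and growth factors of neutrophils passed. With brain damage under HVT/LPEEP 5.90% of all features were higher and 8.50% lower, and between the BD groups 2.85% and 2.82%. Of 14 measured, Csf3, the granulocyte growth factor, was higher in both comparisons, by 0.37 ± 0.11 (SE) with brain damage under HVT/LPEEP and by 0.42 ± 0.11 between the BD groups (limma, adjusted p = 0.028 and 0.0282). Alox5ap and Lta4h, which serve leukotriene synthesis, were lower with brain damage under HVT/LPEEP, by -0.49 ± 0.13 (0.0159) and -0.32 ± 0.11 (0.0424). Of the platelet chemokines that lie among the ligand genes, Pf4 was higher by 0.41 ± 0.12 with brain damage under HVT/LPEEP (0.0253) and by 0.43 ± 0.12 between the BD groups (0.039). Ppbp, whose product is cut to a CXCR2 ligand, differed by 0.66 ± 0.23 and 0.55 ± 0.23 (adjusted p = 0.0563 and 0.163). The mean of 6 platelet genes, relative to all rats, ran from -0.12 to 0.69 for BD HVT/LPEEP, -0.23 to 0.57 for BD LVT/OLPEEP, -0.41 to 0.75 for NBD HVT/LPEEP, and -0.51 to -0.32 for NBD LVT/OLPEEP, so that the first 3 groups overlapped with each other and the last only with NBD HVT/LPEEP. All 6 genes were called higher when BD HVT/LPEEP was set against NBD LVT/OLPEEP, where 9.03% of all features were. When it was set against each of the other groups, 1 of the 6 was called higher. The part of platelets in these values was not tested.

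Neutrophil markers were measured beside the chemokines. Of 24 markers, 20 did not pass with brain damage under HVT/LPEEP, and the list median was 0.26 against -0.01 over all features. With 5.90% of all features higher and 8.50% lower in this comparison, 3 markers were higher, namely S100a9 (0.76 ± 0.20, SE, limma, adjusted p = 0.0132), Ncf1 (0.58 ± 0.15, 0.0137) and S100a8 (0.97 ± 0.28, 0.0246), and Alpl was lower (-0.33 ± 0.10, 0.0363). S100a8 and S100a9 are calcium-binding proteins abundant in neutrophil cytosol, and Ncf1 is a subunit of the oxidase that makes superoxide. Between the settings in BD, limma called 0 of the 24, beside 5.67% of all features. At an unadjusted p under 0.05 it was also 0 of the 24, beside 21.0% of all features. By the same rule, BD against NBD gave 9 of the 24 under HVT/LPEEP, beside 27.8% of all features. Under LVT/OLPEEP it gave 5 (Alpl, Mmp9, Ncf1, S100a8 and S100a9), beside 11.6%. S100a9 was also called higher in BD LVT/OLPEEP against NBD HVT/LPEEP at an adjusted p under 0.05, as were 0.244% of all features. The granule enzymes Mpo and Elane, made in bone marrow precursors, differed by 0.09 ± 0.05 and -0.10 ± 0.10 with brain damage under HVT/LPEEP (adjusted p = 0.261 and 0.553).

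The mean of the 24 neutrophil markers, relative to all rats, lay between -0.08 and 0.52 for BD HVT/LPEEP, -0.04 and 0.33 for BD LVT/OLPEEP, -0.61 and 0.45 for NBD HVT/LPEEP and -0.44 and 0.39 for NBD LVT/OLPEEP. The highest NBD value was that of rat 12, which also had the highest NBD values of Cxcl1 and Cxcl2. Over the 24 rats this mean had r = 0.685 with Cxcl1, 0.741 with Cxcl2, 0.678 with Cxcr2, 0.395 with Cxcl6, 0.147 with Cxcl3 and -0.203 with Cxcr1. After subtraction of the group means r was 0.692 with Cxcl1, 0.787 with Cxcl2, 0.678 with Cxcr2, 0.246 with Cxcl6, -0.049 with Cxcl3 and 0.148 with Cxcr1, so the sign turned for Cxcl3 and Cxcr1. The part of neutrophil number in the ligand and receptor values was not tested.

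Most markers of other lung cells did not pass. With brain damage under HVT/LPEEP, 4 of 10 alveolar type I markers (Ager, Aqp5, Emp2 and Rtkn2) and 4 of 10 type II markers (Abca3, Etv5, Nkx2-1 and Sftpb) were lower, as were 2 of 9 endothelial markers (Sox17 and Vwf), 1 of 9 fibroblast and smooth muscle markers (Pdgfra) and 0 of 6 club and airway markers, beside 8.50% of all features. Of 13 macrophage and monocyte markers, Fcgr1a and Msr1 were higher and Csf1r and Mrc1 lower, and of 12 lymphocyte markers Cd8a, Gzmb and Ms4a1 were higher, beside 5.90% of all features. The BD comparison gave 2 type I and 3 type II markers lower, and 0 endothelial, macrophage or lymphocyte markers passed, beside 2.85% of all features higher and 2.82% lower. The type I mean, relative to all rats, was between -0.33 and -0.13 for BD HVT/LPEEP and between -0.03 and 0.22 for BD LVT/OLPEEP. It was between -0.355 and 0.245 for NBD HVT/LPEEP and between 0.016 and 0.274 for NBD LVT/OLPEEP. The lowest rat was thus in NBD HVT/LPEEP. The type II mean was between -0.37 and -0.04 for BD HVT/LPEEP and between -0.14 and 0.17 for BD LVT/OLPEEP. It was between -0.022 and 0.108 for NBD HVT/LPEEP and between 0.026 and 0.105 for NBD LVT/OLPEEP. The part of cell composition in the values of the 6 genes was not tested. Under LVT/OLPEEP, where BD was compared with NBD, 0 genes passed in any of these lists, beside 0.208% of all features higher and 0.530% lower.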

How the data were processed

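Affymetrix arrays of lung RNA from 24 rats were used. The authors deposited 1 table of log2 values with 19239 features. All 24 arrays held the same set of values in different order, as quantile normalization leaves them, and the deposited values were used without further scaling. The base of the logarithm is read from the values, while the background correction and probe summary were not given in the sources used here. Scanner files were not used here, so signal over background is unknown. Of the features, 16592 had a gene symbol. Symbols came from the platform annotation and were updated by gene identifier, and of 222 names in 17 gene lists, 195 had a feature.

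Each feature was fitted as 4 group means with limma 3.58.1 (lmFit and eBayes) in R 4.3.3, with 20 residual degrees of freedom. There were 7 contrasts, two-sided, with Benjamini-Hochberg adjustment over the 19239 features and a threshold of 0.05. The study itself used a mixed-model analysis of variance and Holm's correction, whose model terms are not stated. The code was tested on simulated data. Exact permutation tests covered 924 splits of 6 against 6 rats.

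Alternatives were a shift of each array to the same level of Eif2b1 (Ppia, the other reference gene, was not matched to a feature), leaving out the 40% dimmest features, only the groups compared, eBayes with trend and robust, no moderation, array weights, Holm's correction, animal number as a covariate, and leaving out each rat, every pair (15) of rats in BD HVT/LPEEP, or 2 rats together. Named genes were the 6 family genes, up to 3 genes with the smallest p of each list in each of the comparisons of BD HVT/LPEEP with BD LVT/OLPEEP and with NBD HVT/LPEEP, genes called against their list, and the 5 genes most correlated with Cxcl1 and with Cxcr2 above the 40th percentile of mean value. Other genes called in a list are named without values, and the values of Sele, Selp, Mpo, Elane, Hcls1 and Alpl were added after they were seen. The family genes and the lists were chosen with earlier results of these data known.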

Additional observations from a re-analysis of the deposited data

Results flagged for a closer look

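In 88 sets of 6 rats (the 6 genes and 16 list means in each group), 6 had a rat that stood apart from the other 5 by Dixon's criterion, which chance alone gives in about 1 in 20 sets. Cxcl1 was 10.03 in BD LVT/OLPEEP rat 20, against 10.80 to 11.18 in the other 5 rats, and without this rat the difference between the BD groups was 1.11 with adjusted p = 0.0704 (limma). Cxcl6 was 9.10 in BD HVT/LPEEP rat 11, against 8.24 to 8.53 in the other 5. The mean of skeletal muscle markers, relative to all rats, was 3.61 in BD LVT/OLPEEP rat 16 and 0.17 in BD HVT/LPEEP rat 37, both above the others of their group. The mean of the adhesion list was 0.02 in BD HVT/LPEEP rat 28, below the others at 0.17 to 0.22. The mean of fibroblast and smooth muscle markers was 0.54 in NBD HVT/LPEEP rat 34, against -0.26 to 0.01.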

How the results depend on the processing

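Over 42 values (6 genes in 7 comparisons) and 1493 results under the alternatives, 1425 kept their side of the threshold, 42 lost a call, 26 gained one and 0 called values changed sign. The 15 pairs of BD HVT/LPEEP rats entered this total as summaries, not 1 by 1. The calls lost over pairs, given below, are therefore not all among the 42. The total also counts exact permutation tests without adjustment. Between the BD groups 2 genes passed. This count was 1 after the shift to Eif2b1 (Cxcl1), 1 without the 40% dimmest features, which include Cxcl6 itself, 0 with Holm's correction and 4 with animal number as a covariate (Cxcl1, Cxcl2, Cxcl3 and Cxcl6). It ranged from 1 to 3 when single rats were left out and fell to 1 at the lowest over pairs of BD HVT/LPEEP rats. Between BD and NBD under HVT/LPEEP 4 passed, with 0 under Holm's correction, 2 to 5 without single rats and 2 at the lowest over pairs. There Cxcl2 was gained with the Eif2b1 shift, the dim filter, array weights and animal number, Cxcl3 was lost with only the 2 groups' arrays and without moderation, and Cxcr1 was lost with the Eif2b1 shift and array weights. Against NBD LVT/OLPEEP the 4 calls of BD HVT/LPEEP became 0 under Holm's correction and 3 at the lowest over pairs, and the Eif2b1 shift ended the Cxcl6 call. Under LVT/OLPEEP 0 passed, but 1 (Cxcr1) did with array weights and in the exact permutation test without adjustment, and 0 to 1 did without single rats. In NBD 0 passed and 1 (Cxcl3) did in the exact test without adjustment. For the difference of the ventilation differences 0 passed, 2 did (Cxcl1 and Cxcl6) with animal number as a covariate and 1 (Cxcl6) at the highest over pairs. Animal number is partly confounded with the ventilation setting in BD, which limits what the calls gained with it show. The causes were not tested. The shift to Eif2b1 moved all features by -0.22 between the settings in NBD, by -0.11 in BD and by 0.13 between BD and NBD under HVT/LPEEP. Leaving out pairs of BD HVT/LPEEP rats, among which 2 non-survivors are not identified, ended the Cxcl1 call between the BD groups in 10 of 15 pairs, the Cxcl3 call under HVT/LPEEP in 11, the Cxcr1 call under HVT/LPEEP in 15, the Cxcl2 call against NBD LVT/OLPEEP in 3 and the Cxcl6 calls in 0. No paired analysis was possible because the animal numbers in the labels differ between all groups.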
